A study of Mus musculus with 384 samples.

Results

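Semaphorins, plexins and neuropilins are the ligands, receptors and co-receptors of a guidance system for growing axons and dendrites, and their transcripts were followed here in single cells of the mouse retina. The members were all genes whose symbol starts with Sema and a digit or with Plxn, together with Nrp1 and Nrp2. The rule gave 31 of the 32813 genes measured, which were 20 semaphorins, 9 plexins and 2 neuropilins. Of these, 28 passed the filter on low counts in sums per mouse, while Plxnb3, Sema3c and Sema3g did not, and 23 passed it in sums per retina.

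The cells came from 4 retinas (1la and 1Ra of mouse 1, 2la and 2Ra of mouse 2) at postnatal day 17, with 96 cells sorted per retina. Every mouse carried Kcng4-cre (allele Kcng4tm1.1(cre)Jrs), which expresses Cre recombinase from the gene of a potassium channel subunit, and the reporter transgene Thy1-stop-YFP Line#1, which makes yellow fluorescent protein once Cre has acted. No untreated or wild-type group was part of the design, the reporter limits the cells to those in which Cre had acted and the Thy1 transgene was on, and each cell was sequenced as its own Smart-seq2 library. Values for 383 cells were analysed, and 321 of them had at least 3000 genes at an expected count of 1 or more.

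The kept cells were divided by 3 marker genes. Cells with exactly 1 marker at 20 TPM or more (a level scaled for gene length and to the same total in every cell) numbered 151 for Sox6, 60 for Vsx1 and 59 for Ddit4l. Sox6 and Vsx1 encode transcription factors, and Ddit4l encodes a regulator of the mTOR pathway. The 3 groups are called Sox6-only, Vsx1-only and Ddit4l-only. Each group had cells of all 4 retinas, from 10 to 46 per retina, and the other 51 kept cells had no marker or more than 1. In 23 kept cells a marker lay between 10 and 40 TPM, within reach of the threshold. The groups rest on those markers alone, not on any semaphorin, plexin or neuropilin.

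The median total per cell was 1067453 counts in Sox6-only, 1072603 in Vsx1-only and 1091485 in Ddit4l-only cells, and single cells ranged from 203657 to 1945582. These medians pool the retinas, and in every group the la retina had a higher median total than the Ra retina of the same mouse. Of 11 bipolar cell markers, 9, 8 and 6 were present in most cells of the Sox6-only, Vsx1-only and Ddit4l-only groups, among them Otx2, Isl1, Grm6 and Trpm1. No amacrine, astrocyte, microglia, endothelial, pericyte or pigment epithelium marker was present in most cells of any group, and of 10 ganglion cell markers Thy1, which also drives the reporter, was present in most Sox6-only cells. Single markers of cones (Pde6h) and horizontal cells (Calb1) and up to 2 of 8 of Müller glia (Slc1a3, Glul) were in most cells of a group. Rod transcripts were common: 43 of 151 Sox6-only, 18 of 60 Vsx1-only and 11 of 59 Ddit4l-only cells held 1000 TPM or more summed over 8 rod markers. Median mitochondrial shares were 1.97% to 2.35% in the groups of the la retinas and 3.62% to 4.97% in those of the Ra retinas. Which eye or which preparation the labels la and Ra stand for is not given, and retina and plate cannot be told apart.

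Semaphorins are secreted (class 3 in vertebrates), membrane-spanning (classes 4, 5 and 6) or held by a lipid anchor (class 7), and all carry a sema domain that binds plexins. Plexins are membrane receptors whose inner part acts on small GTPases of the Rap and Ras families, which changes the cytoskeleton and adhesion of the cell. Most class 3 semaphorins need a neuropilin as the binding part of the receptor, with a plexin as the signalling part. In the retina, the class 5 semaphorins with Plxna1 and Plxna3, and Sema6a with Plxna2 and Plxna4, are known for keeping neurites within their layers of the inner plexiform layer, where bipolar cells make their synapses.

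Sema4d and Plxnb2 had the highest mean levels of the family in all 3 marker groups. The mean TPM over cells, averaged over both mice, reached 20 in at least 1 group for 5 members: Plxnb2, Sema4d, Sema6a, Nrp2 and Plxna2. Another 10 members had between 5 and 20 TPM in their highest group and 10 had between 1 and 5. The remaining 6 (Nrp1, Plxnb3, Sema3c, Sema3e, Sema3g and Sema6b) were under 1 TPM in every group, and no count of Plxnb3 or Sema3c was recorded in any of the 270 cells. A cell held a median of 3 members at 20 TPM or more in each group, and at most 8 in Sox6-only, 6 in Vsx1-only and 7 in Ddit4l-only cells.

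**Figure D1:**
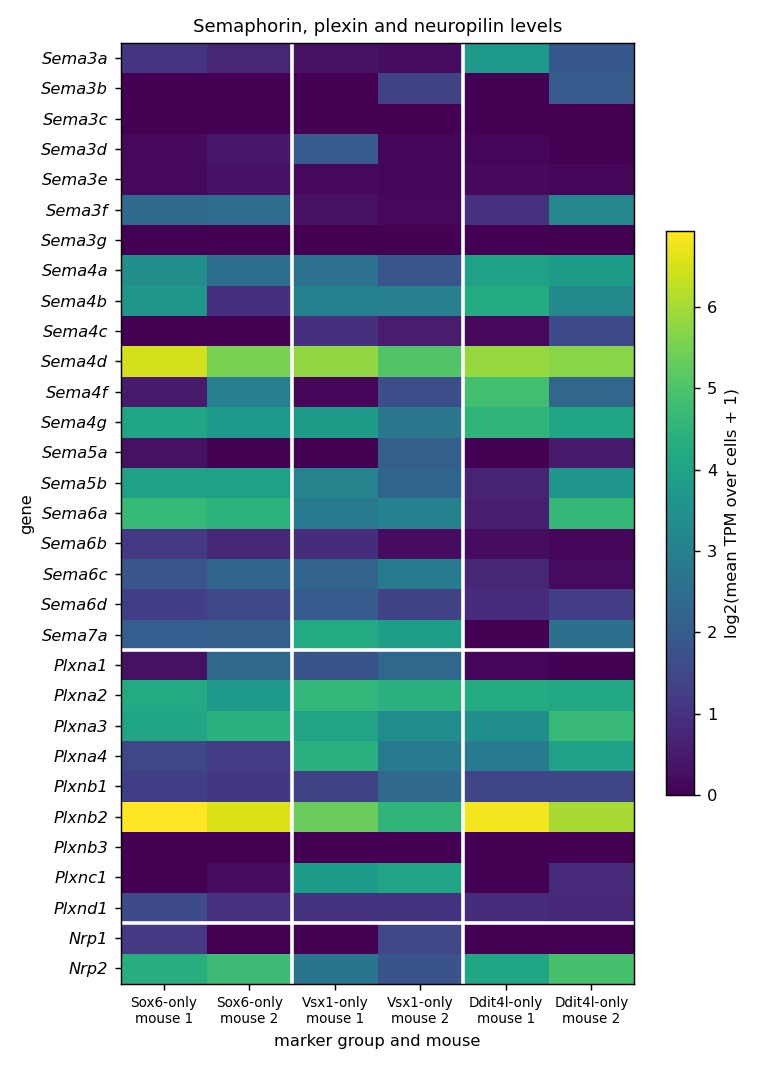
Mean level of the 31 members in each marker group and mouse. Colour gives log2 of the mean TPM over cells plus 1, rows are genes with the semaphorins on top, then the plexins, then the neuropilins, and each column is 1 mouse of 1 marker group; Sema4d and Plxnb2 have the 2 highest values in all 6 columns, Plxnb2 with 22.2 TPM close to Plxna2 with 20.2 TPM in the Vsx1-only column of mouse 2, and Plxnc1 is above 1 TPM in the Vsx1-only columns alone.

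Among the ligands, class 4 semaphorins made up most of the semaphorin transcripts. Their summed mean was 124 and 70.3 TPM in Sox6-only cells of mouse 1 and mouse 2, 81.1 and 50.4 TPM in Vsx1-only cells, and 139 and 93.98 TPM in Ddit4l-only cells, between 56.97% and 89.5% of the semaphorin sum. The 7 class 3 genes together gave at most 13.98 TPM in any mouse and group. Class 5 and class 6 sums were close between the mice in Sox6-only and Vsx1-only cells, but in Ddit4l-only cells the class 6 sum was 2.15 TPM in mouse 1 and 25.4 TPM in mouse 2.

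Sema4d, a membrane-spanning ligand of the class B plexins, was the most evenly spread of the 29 members detected in these 270 cells. It had a value above 0 in 262 cells, and the 27 cells with most of it held 42.1% of its summed TPM, against 48.2% for Plxnb2 and 97.2% for Plxnc1. Mean TPM in mouse 1 and mouse 2 was 86.3 and 45.5 in Sox6-only, 54.7 and 32.3 in Vsx1-only, and 57.05 and 50.5 in Ddit4l-only cells. The share of cells at 20 TPM or more was 62.9%, 56.7% and 64.4% in the same order (exact 95% intervals 54.7% to 70.6%, 43.2% to 69.4% and 50.9% to 76.4%, which cover counting of cells only and not the spread between mice). In sums per retina, given as CPM (counts scaled to the library total, but not for gene length), Sema4d was 103, 119, 85.2 and 55.2 CPM in Sox6-only cells of retinas 1la, 1Ra, 2la and 2Ra. Values in the same retinas were 74.9, 32.3, 48.4 and 18.9 CPM in Vsx1-only cells and 76.6, 44.3, 87.6 and 35.5 CPM in Ddit4l-only cells. Sox6-only cells were above Vsx1-only cells in each retina, but the ranges of the groups overlapped. The difference of Sox6-only from Vsx1-only cells was 0.97 ± 0.38 (log2 fold change ± SE) in sums per mouse, and it did not pass the test (edgeR quasi-likelihood with mouse as block, Benjamini-Hochberg adjusted p = 0.593, n = 2 mice).

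Sema6a, a membrane-spanning ligand of Plxna2 and Plxna4, had its highest mean in Sox6-only cells. Its mean TPM was 24.1 and 21.2 in the Sox6-only cells of the 2 mice, 6.17 and 7.26 in Vsx1-only cells, and 0.492 and 23.7 in Ddit4l-only cells. In retinas 1la, 1Ra, 2la and 2Ra it stood at 45.9, 29.9, 40.7 and 23.6 CPM in Sox6-only, at 4.52, 17.7, 2.38 and 42.4 CPM in Vsx1-only, and at 0.239, 1.30, 13.4 and 32.8 CPM in Ddit4l-only cells. The Sox6-only retinas lay close together, the other groups spread widely, and the ranges overlapped. The fitted differences were 1.66 ± 1.27 against Vsx1-only and 2.77 ± 1.47 against Ddit4l-only cells (log2 ± SE, edgeR quasi-likelihood, adjusted p = 0.838 and 0.709). No cell of mouse 1 in the Ddit4l-only group reached 20 TPM, against 5 of 30 cells of mouse 2.

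Sema7a, the lipid-anchored ligand that binds Plxnc1 and integrins, showed its highest levels in Vsx1-only cells. It is named, like the other members from here on that did not reach a mean of 20 TPM, after its values were seen. Mean TPM was 18.02 and 13.9 in Vsx1-only cells of the 2 mice, 3.23 and 3.28 in Sox6-only, and 0 and 4.87 in Ddit4l-only cells. In retinas 1la, 1Ra, 2la and 2Ra it was at 31.1, 39.2, 33.3 and 20.9 CPM in Vsx1-only cells, at 14.3, 0.224, 11.5 and 1.69 CPM in Sox6-only cells, and at 0, 0, 13.2 and 0 CPM in Ddit4l-only cells. All 4 Vsx1-only retinas lay above all retinas of both other groups. At the level of cells, 13 of 60 Vsx1-only cells had 20 TPM or more, as did 7 of 151 Sox6-only and 2 of 59 Ddit4l-only cells. The differences did not pass the test in sums per mouse (Vsx1-only minus Ddit4l-only log2 3.49 ± 2.60 SE, edgeR quasi-likelihood adjusted p = 0.652) or in sums per retina (adjusted p = 0.225).

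Of the secreted ligands, Sema3a and Sema3f had the highest means. Sema3a, the founding collapse-inducing ligand of Nrp1 with class A plexins, was at 8.83, 13.3, 0.633 and 20.6 CPM in Ddit4l-only cells of retinas 1la, 1Ra, 2la and 2Ra and at 0.565, 0.150, 0.178 and 0.403 CPM in Vsx1-only cells. The groups did not overlap, although only 3 of 59 Ddit4l-only cells and no Vsx1-only cell reached 20 TPM. For 0 of 60 cells, the exact 95% interval reaches up to a share of 5.96%. In Sox6-only cells Sema3a was at 1.63, 0.404, 0.294 and 5.90 CPM. Sema3f, the ligand that binds Nrp2, was at 9.34, 9.59, 15.97 and 2.34 CPM in Sox6-only, at 1.54, 0.0750, 0.297 and 0.0806 CPM in Vsx1-only, and at 4.14, 0.651, 18.9 and 9.06 CPM in Ddit4l-only cells. The Sox6-only retinas were all above the Vsx1-only retinas, and those of the Ddit4l-only group overlapped with both. The remaining class 3 genes stayed under 3 TPM in every mouse and group.

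Among the other class 4 genes, Sema4g had a mean between 5.75 and 21.96 TPM in every mouse and group, with at least 1 count in 59.6% of Sox6-only, 46.7% of Vsx1-only and 66.1% of Ddit4l-only cells. Sema4a was at 1.03, 31.97, 15.5 and 19.1 CPM in Ddit4l-only cells of retinas 1la, 1Ra, 2la and 2Ra and between 1.13 and 1.39 CPM in Vsx1-only cells. Its Vsx1-only minus Ddit4l-only difference was -3.81 ± 0.96 (log2 ± SE, edgeR quasi-likelihood adjusted p = 0.264, sums per mouse). High Sema4a was limited to a few cells, with 20 TPM or more in 6 of 59 Ddit4l-only and 1 of 60 Vsx1-only cells. At lower levels the order was the other way. At least 1 count was found in 37.3% of Ddit4l-only and 45% of Vsx1-only cells, and the median cell had 0 and 2.07 TPM. Sema4f in Ddit4l-only cells came to 167 CPM in retina 1la and between 0 and 11.6 CPM in the other 3. Its group mean rested largely on 1 cell of retina 1la. The highest cell held 770 TPM, the mean over the 10 cells of that retina was 79.1 TPM, and 5 of 59 cells had at least 1 count. Sema5b, of the class 5 ligands, had mean levels of 14.6 and 14.8 TPM in Sox6-only cells of the 2 mice, 7.51 and 3.68 TPM in Vsx1-only cells, and 0.624 and 11.2 TPM in Ddit4l-only cells. Sema4b ranged from 0.922 to 18.2 TPM over the mice and groups. Sema4c reached at most 1.95 TPM, Sema5a 3.26 TPM, and Sema6b, Sema6c and Sema6d at most 1.24, 6.19 and 3.08 TPM.

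Among the receptors, Plxnb2 was the only member whose difference between marker groups passed the edgeR test in sums per retina. Plxnb2, a class B plexin that binds class 4 semaphorins, lies on chromosome 15 (89155549 to 89180788, minus strand, GRCm38). In Sox6-only cells it was at 281, 145, 232 and 106 CPM in retinas 1la, 1Ra, 2la and 2Ra, and in Ddit4l-only cells at 254, 139, 174 and 92.8 CPM. In Vsx1-only cells it was at 68.1, 66.3, 73.2 and 29.4 CPM. Each retina of the Sox6-only and Ddit4l-only groups lay above every Vsx1-only retina, while those 2 groups overlapped with each other. Per length, the means were 121 and 94.1 TPM in Sox6-only, 39.6 and 22.2 TPM in Vsx1-only, and 110.3 and 63.7 TPM in Ddit4l-only cells of the 2 mice.

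The Plxnb2 difference was 1.76 ± 0.20 for Sox6-only minus Vsx1-only and -1.50 ± 0.20 for Vsx1-only minus Ddit4l-only (log2 ± SE, sums per mouse). With 2 mice these had edgeR quasi-likelihood p-values of 0.000617 and 0.00119 before adjustment and Benjamini-Hochberg adjusted values of 0.172 and 0.134, which did not pass. With counts summed per retina and the retina as block, Plxnb2 was higher in Sox6-only than in Vsx1-only cells by 1.66 ± 0.21 (edgeR adjusted p = 0.00902). By the same test it was lower in Vsx1-only than in Ddit4l-only cells, with a difference of -1.46 ± 0.21 (log2 ± SE, adjusted p = 0.0107). Both retinas of a pair come from the same mouse, so p-values over retinas are too small when read as statements about mice. Sox6-only and Ddit4l-only cells differed by 0.27 ± 0.20 on the log2 scale (edgeR, sums per mouse, adjusted p = 0.794).

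The difference in Plxnb2 lay in how many cells carried it as well as in the mean. Cells at 20 TPM or more made up 83 of 151 Sox6-only (54.97%, exact 95% interval 46.7% to 63.1%), 19 of 60 Vsx1-only (31.7%, 20.3% to 44.96%) and 33 of 59 Ddit4l-only cells (55.9%, 42.4% to 68.8%). These intervals cover counting of cells only and not the spread between mice. Shares in mouse 1 and mouse 2 were 52.4% and 56.8% in Sox6-only, 38.2% and 23.1% in Vsx1-only, and 62.1% and 50% in Ddit4l-only cells. The median cell had 27.9, 0.230 and 32.4 TPM in the same order of groups. Among cells without high rod transcripts the shares were 55.6%, 33.3% and 56.3%. When every cell was thinned to 200000 counts, at least 1 count was left in 68.2%, 40% and 62.7% of cells, against 74.2%, 53.3% and 72.9% without thinning. The other class B plexins were low: Plxnb1 had at most 4.13 TPM in any mouse and group, and Plxnb3 was at 0 in all of them.

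**Figure D2:**
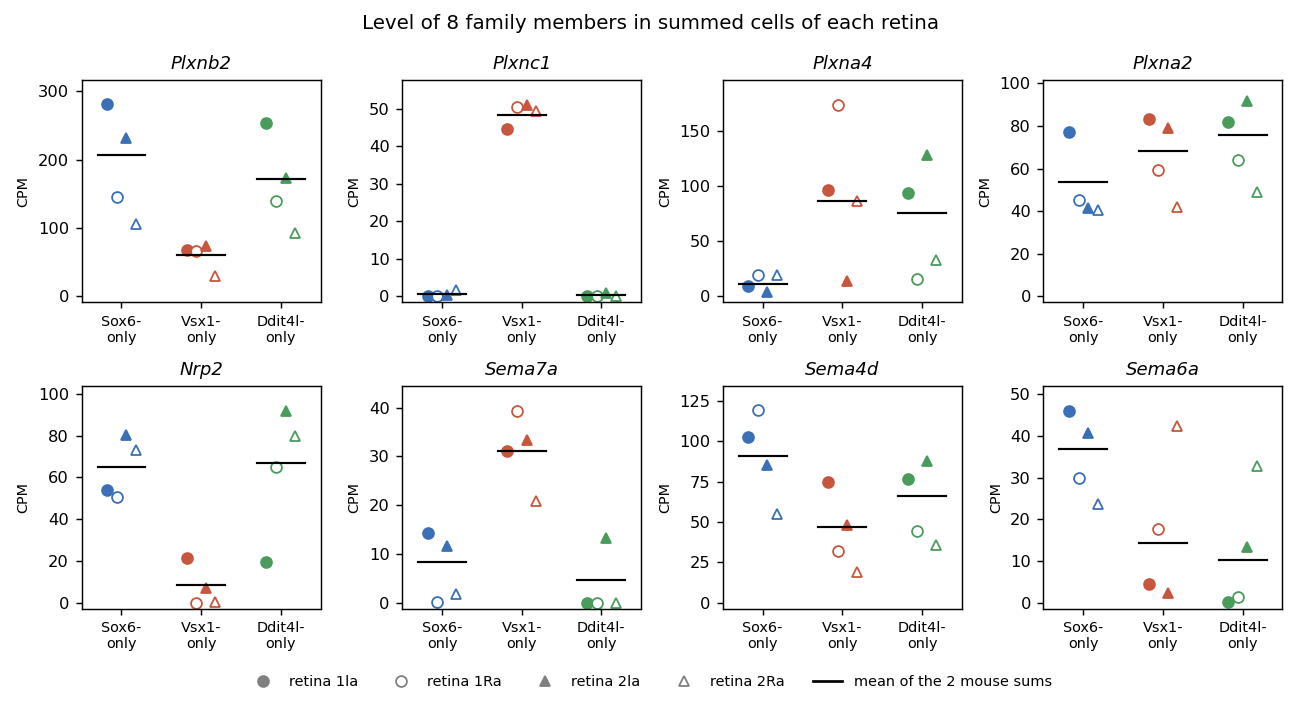
Level of 8 members in the summed cells of each retina, in CPM, by marker group. Circles are the retinas of mouse 1 and triangles those of mouse 2, filled for la and open for Ra, and bars give the mean of the 2 mouse sums; the Vsx1-only retinas lie below the others for Plxnb2 (29.4 to 73.2 CPM) and above them for Plxnc1 (44.6 to 50.9 CPM) and Sema7a (20.9 to 39.2 CPM).

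Plxnc1, the class C plexin that binds Sema7a, had its highest level in Vsx1-only cells and was near 0 in the other marker groups. It was at 44.6, 50.6, 50.9 and 49.6 CPM in the Vsx1-only cells of retinas 1la, 1Ra, 2la and 2Ra. In Sox6-only cells it was at 0, 0, 0.496 and 1.79 CPM, and in Ddit4l-only cells at 0.0796, 0.0651, 1.03 and 0 CPM. The Vsx1-only retinas differed little from each other and lay above every other retina. Of 60 Vsx1-only cells 35 had at least 1 count and 14 had 20 TPM or more. These numbers were 5 and 0 of 151 Sox6-only cells and 5 and 1 of 59 Ddit4l-only cells. For 0 of 151 cells, the exact 95% interval reaches up to a share of 2.41%. Outside the marker groups, the 51 other kept cells had a mean of 9.05 TPM in mouse 1 and 6.03 TPM in mouse 2. The fitted difference was -8.38 ± 2.30 for Sox6-only minus Vsx1-only and 8.27 ± 2.24 for Vsx1-only minus Ddit4l-only (log2 ± SE, sums per mouse). These did not pass the test with 2 mice (edgeR quasi-likelihood adjusted p = 0.470 and 0.289) or in sums per retina (adjusted p = 0.158 and 0.0755). The size of the fitted values depends on the few counts in the low groups, and it ranged from 3.497 to 9.77 over the alternatives for Vsx1-only minus Ddit4l-only.

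**Figure D3:**
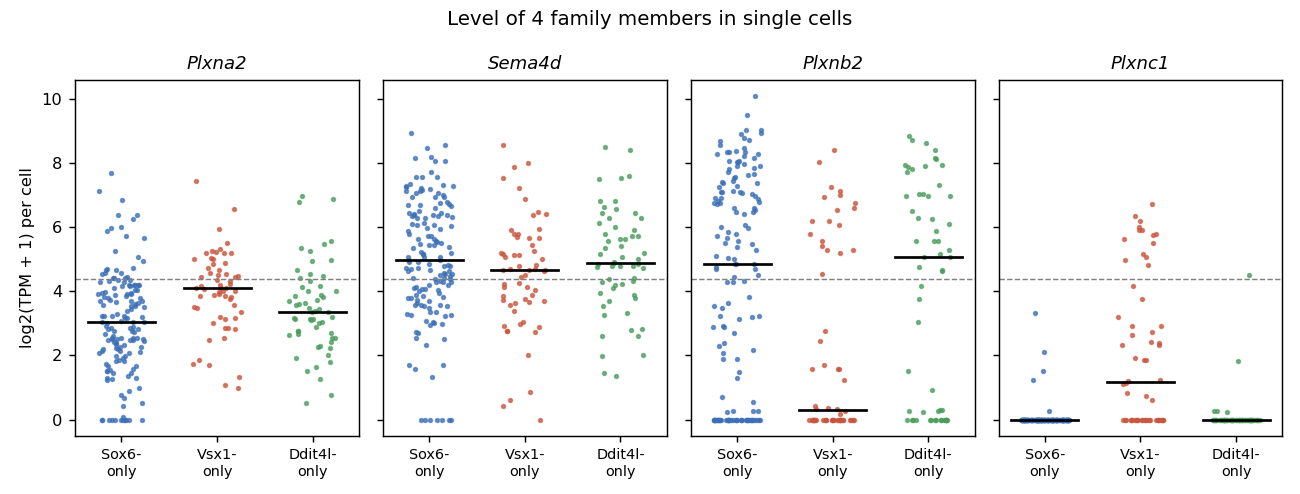
Level of 4 members in each cell, as log2(TPM + 1), by marker group. Each point is a cell, the black bar is the median cell and the dashed line marks 20 TPM; Plxna2 and Sema4d were present in nearly all cells, Plxnb2 was at 0 in 46.7% of Vsx1-only cells, and Plxnc1 was at 0 in 96.7% of Sox6-only and 91.5% of Ddit4l-only cells.

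The upstream sequences of the 3 members whose Vsx1-only retinas did not overlap with either other group, Plxnc1 and Sema7a above and Plxnb2 below, are shown for the 250 bases before the transcription start, taken from RefSeq on GRCm38.p6, where 26 of the 31 members had an entry. Capitals mark matches, on either strand, to the GC box GGGCGG and to the Sox motif ACAATG. The first lies at chr10:94944846-94945095 on the minus strand, the next at chr9:57939862-57940111 on the plus strand and the last at chr15:89180789-89181038 on the minus strand. Each is written 5′ to 3′ in the direction of the gene.
Plxnc1: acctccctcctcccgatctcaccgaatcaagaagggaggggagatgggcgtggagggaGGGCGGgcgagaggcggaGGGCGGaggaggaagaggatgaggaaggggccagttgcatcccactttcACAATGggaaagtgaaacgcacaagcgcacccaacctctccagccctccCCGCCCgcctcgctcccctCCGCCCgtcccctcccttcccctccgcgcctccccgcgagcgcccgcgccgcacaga
Sema7a: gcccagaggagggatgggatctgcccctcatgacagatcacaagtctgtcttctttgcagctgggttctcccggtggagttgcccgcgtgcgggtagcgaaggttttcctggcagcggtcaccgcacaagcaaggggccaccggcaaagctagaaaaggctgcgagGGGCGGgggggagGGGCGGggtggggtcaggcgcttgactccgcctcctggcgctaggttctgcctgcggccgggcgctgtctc
Plxnb2: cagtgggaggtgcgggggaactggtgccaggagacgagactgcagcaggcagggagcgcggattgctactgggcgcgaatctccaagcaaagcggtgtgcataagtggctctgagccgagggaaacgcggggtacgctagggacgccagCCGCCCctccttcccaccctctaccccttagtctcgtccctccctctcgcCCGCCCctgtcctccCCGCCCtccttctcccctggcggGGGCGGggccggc
Plxnc1 had 4 GC boxes and 1 ACAATG, Sema7a had 2 GC boxes, and this promoter of Plxnb2, the gene with 2 promoters in the table, had 4 GC boxes. Among 32851 promoter windows of the same length, 32.7% held GGGCGG and 10.7% held ACAATG on either strand. The homeodomain core TAATTA (4.84% of windows), the Otx and Crx core GGATTA (6.25%) and the second Sox motif ACAAAG (16.5%), each searched on both strands, were not in these 3 windows. The motifs do not overlap with each other here, and a match is a description of the letters only.

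The class A plexins gave the largest part of the plexin sum in Vsx1-only cells (52.3% and 48.3% of it in the 2 mice) and 22.5% and 28.2% in Sox6-only cells, where class B made up 76.3% and 70.9%. In Ddit4l-only cells the class A share was 23.3% in mouse 1 and 45.7% in mouse 2. Plxna2, a receptor for Sema6a and for class 3 semaphorins with neuropilins, was the plexin found in most cells: 92.1% of Sox6-only cells and all Vsx1-only and Ddit4l-only cells had at least 1 count of it. In retinas 1la, 1Ra, 2la and 2Ra it was at 77.025, 45.4, 41.7 and 40.6 CPM in Sox6-only, at 83.5, 59.5, 79.2 and 41.98 CPM in Vsx1-only, and at 81.9, 63.9, 91.6 and 49.1 CPM in Ddit4l-only cells. Within each retina Sox6-only cells were below both other groups, but the ranges of the groups overlapped. The differences of Sox6-only cells were -0.36 ± 0.33 against Vsx1-only and -0.53 ± 0.34 against Ddit4l-only cells (log2 ± SE, edgeR quasi-likelihood adjusted p = 0.891 and 0.750). Cells at 20 TPM or more were 16.6% of Sox6-only, 38.3% of Vsx1-only and 22.03% of Ddit4l-only cells.

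Plxna4, the other receptor of Sema6a and a partner of neuropilins, had its lowest level in Sox6-only cells. It was at 9.05, 19.3, 4.19 and 19.2 CPM in Sox6-only cells of retinas 1la, 1Ra, 2la and 2Ra, at 96.4, 173, 14.4 and 86.1 CPM in Vsx1-only cells, and at 93.9, 15.8, 128 and 32.6 CPM in Ddit4l-only cells. Sox6-only cells were below Vsx1-only cells within each retina and below Ddit4l-only cells within all but 1Ra, while across retinas 2la of Vsx1-only and 1Ra of Ddit4l-only fell into the Sox6-only range. The differences of Sox6-only cells were -2.83 ± 0.71 against Vsx1-only and -2.75 ± 0.71 against Ddit4l-only cells (log2 ± SE), which did not pass the test (edgeR quasi-likelihood, sums per mouse, adjusted p = 0.446 and 0.514). Plxna3 had means between 9.40 and 24.8 TPM in every mouse and group, but most cells held none. It was at 0 in 75.5% of Sox6-only, 78.3% of Vsx1-only and 71.2% of Ddit4l-only cells. In retinas 1la, 1Ra, 2la and 2Ra it was at 16.5, 40.5, 46.1 and 10.8 CPM in Sox6-only cells. Values in the same retinas were 5.03, 39.6, 41.1 and 4.59 CPM in Vsx1-only and 0.875, 25.1, 51.3 and 3.08 CPM in Ddit4l-only cells. Plxna1 was at 14.2, 5.85, 20.2 and 19.1 CPM in Vsx1-only cells of retinas 1la, 1Ra, 2la and 2Ra. In the same retinas it was at 0, 0.586, 0.158 and 0 CPM in Ddit4l-only and 0, 2.11, 25.1 and 12.98 CPM in Sox6-only cells. Few cells reached 20 TPM in any group: 3 of 60 Vsx1-only, 0 of 59 Ddit4l-only and 4 of 151 Sox6-only cells. Plxnd1, the receptor of Sema3e, stayed at or under 2.01 TPM.

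The co-receptors were uneven. Nrp2 had a mean of 22.5 TPM in Sox6-only, 3.92 TPM in Vsx1-only and 22.8 TPM in Ddit4l-only cells, and Nrp1 was nearly absent. In the same order, the median cell held 0.24, 0 and 3.49 TPM of Nrp2, and 46.4%, 75% and 37.3% of cells were at 0. Nrp2, which binds Sema3f and other class 3 ligands, was at 54.1, 50.8, 80.3 and 72.998 CPM in Sox6-only cells of retinas 1la, 1Ra, 2la and 2Ra, at 21.6, 0, 6.89 and 0.0806 CPM in Vsx1-only cells, and at 19.7, 64.8, 91.6 and 79.9 CPM in Ddit4l-only cells. All Sox6-only retinas were above all Vsx1-only retinas, and retina 1la of the Ddit4l-only group was within the Vsx1-only range. At 20 TPM or more there were 43 of 151 Sox6-only, 5 of 60 Vsx1-only and 21 of 59 Ddit4l-only cells. The differences were 2.96 ± 0.83 for Sox6-only minus Vsx1-only and -2.99 ± 0.84 for Vsx1-only minus Ddit4l-only (log2 ± SE, sums per mouse, edgeR quasi-likelihood adjusted p = 0.483 and 0.301), and they did not pass. Nrp1 was above 0 TPM in 7 of 270 cells.

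**Figure D4:**
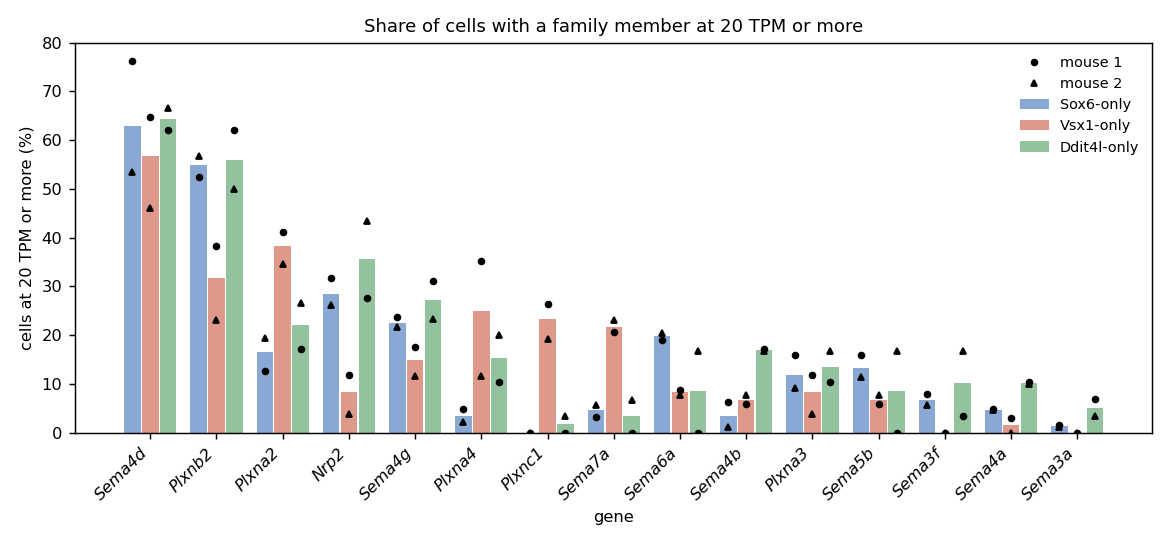
Share of cells with a member at 20 TPM or more in each marker group, for the 15 members with the largest share in any group. Bars pool the cells of a group and black marks give the 2 mice; Sema4d and Plxnb2 reached the largest shares, and Plxnc1 and Sema7a were at 23.3% and 21.7% in Vsx1-only cells and under 5% in the others.

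Counted over the family, no member passed the test in sums per mouse (edgeR quasi-likelihood, adjusted p under 0.05 and at least 1 on the log2 scale). The background was as low: 0.0% of the 16643 genes tested were called between Sox6-only and Vsx1-only cells, 0.0% between Sox6-only and Ddit4l-only cells, and 0.0361% between Vsx1-only and Ddit4l-only cells. At an unadjusted p under 0.05 there were 5, 3 and 6 of 28 members in these comparisons, beside 8.57%, 8.05% and 12.9% of all genes tested. The median log2 difference of the 28 members was 0.48, 0.26 and 0.06, and that of all genes was 0.05, 0.08 and 0.01. In sums per retina, Plxnb2 was the member called in the first and the last comparison, 1 of 23 in each, beside 0.793% and 2.28% of 14505 genes. No member was called between Sox6-only and Ddit4l-only cells, where 0.538% of genes were. Before adjustment, 6, 3 and 9 of 23 members had p under 0.05 by edgeR when the counts were summed by retina (in the order of comparisons above), beside 9.26%, 9.44% and 14.3% of all genes.

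The DESeq2 Wald test on the sums per mouse called more genes throughout. It called 4 of 28 members between Sox6-only and Vsx1-only cells (Nrp2 and Plxnb2 higher, Plxna4 and Plxnc1 lower in Sox6-only), beside 5.11% of all genes. It called 2 between Sox6-only and Ddit4l-only cells (Plxna1 higher and Plxna4 lower in Sox6-only), beside 4.55%. Between Vsx1-only and Ddit4l-only cells it called 8, beside 9.68%: Plxna1 and Plxnc1 were higher in Vsx1-only cells, and Nrp2, Plxnb2, Sema3a, Sema3f, Sema4a and Sema4f were lower. For Sema4f, 5 of 59 Ddit4l-only and 4 of 60 Vsx1-only cells had at least 1 count. The comparisons share groups of cells, so these counts are not independent of each other.

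The 4 retinas of both groups lay apart without overlap for 5 of 23 members between Sox6-only and Vsx1-only cells, beside 8.14% of all genes. Nrp2, Plxnb2 and Sema3f were above and Plxnc1 and Sema7a below in Sox6-only cells. Between Vsx1-only and Ddit4l-only cells there were 5 as well, beside 8.41%, with Plxna1, Plxnc1 and Sema7a above and Plxnb2 and Sema3a below in Vsx1-only cells. Between Sox6-only and Ddit4l-only cells it was Sema6b alone, at 1.05 to 4.17 CPM against 0 to 1.03 CPM, beside 7.05% of all genes. A test of whether the differences between marker groups themselves differed between the mice, with marker group by mouse in sums per retina, called none of 23 members (edgeR quasi-likelihood, lowest adjusted p = 0.662). Of all genes, 0.0%, 0.0138% and 0.00689% were called in the order Sox6-only against Vsx1-only, Sox6-only against Ddit4l-only, Vsx1-only against Ddit4l-only. An unadjusted p under 0.05 was found for 2 of 23 members in each, beside 3.94%, 4.38% and 6.91% of all genes.

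Plxna2 and Plxnb2 were higher in the la than in the Ra retina in all 6 pairs of retinas (2 mice by 3 marker groups). For Plxnb2 in Sox6-only cells these were 281 against 145 CPM in mouse 1 and 232 against 106 CPM in mouse 2. This held for 2 of 23 members, beside 4.53% of all genes, and no member was lower in la in all 6 pairs, beside 4.79%. The mitochondrial share was lower in the la retinas in the same 6 pairs, and the median total and median number of genes per cell were higher. In Sox6-only cells the median total was 1304984 counts in 1la against 747269 in 1Ra, and 1193941 in 2la against 1000627 in 2Ra. The part of the mitochondrial share, the total and the number of genes in these differences was not tested.

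Ligands and receptors known to bind each other were counted in the same cell, and such counts depend on how many cells held each gene. Sema4d and Plxnb2 were both at 20 TPM or more in 59 of 151 Sox6-only, 12 of 60 Vsx1-only and 22 of 59 Ddit4l-only cells. Counted singly in the same order, Sema4d was at that level in 95, 34 and 38 cells and Plxnb2 in 83, 19 and 33. The overlap expected from single counts was not worked out, so shared cells do not show that a pair goes together or apart. Sema7a and Plxnc1 were both at that level in 4 Vsx1-only cells, while 9 had Sema7a alone, 10 had Plxnc1 alone and 37 had neither. Sema6a and Plxna4 were together at that level in no Sox6-only cell (30 had Sema6a alone and 5 Plxna4 alone), in no Vsx1-only cell (5 and 15) and in 1 Ddit4l-only cell (4 and 8). Sema6a and Plxna2 were together in 7 Sox6-only, 1 Vsx1-only and 2 Ddit4l-only cells. Sema3f and Nrp2 shared 2 Sox6-only and 5 Ddit4l-only cells. These are counts of cells that share animals and plates, and no test was made of them.

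Downstream of the receptors, a list of 47 genes was examined: co-receptors and their ligands, GTPases and their regulators, MICAL oxidases, CRMP proteins that carry the signal to microtubules, kinases with cofilin, and scaffolds. Of these 39 were tested in sums per mouse and none passed (edgeR quasi-likelihood, with 4, 4 and 8 at an unadjusted p under 0.05 in the order Sox6-only against Vsx1-only, Sox6-only against Ddit4l-only, Vsx1-only against Ddit4l-only, beside 8.57%, 8.05% and 12.9% of all genes). DESeq2 called 3, 2 and 8 of the 39, beside 5.11%, 4.55% and 9.68% of all genes. These were Dpysl5, Mical2 and Nrcam, then Mical2 and Nrcam, then Cdk5, Cntn2, Dpysl3, Dpysl4, Dpysl5, Farp1, Gsk3b and Mical2. Mical2, named after its values were seen, was at 39.6 to 99.6 CPM over the Sox6-only retinas. It was at 2.56 to 5.91 CPM over the Vsx1-only and 1.51 to 30.7 CPM over the Ddit4l-only retinas. In sums per retina 1 of 36 passed, in the last comparison, beside 2.28% of all genes. This was Dpysl5, which encodes a CRMP protein, at 96.4, 42.1, 22.2 and 84.5 CPM in Vsx1-only and 351, 197, 271 and 169 CPM in Ddit4l-only cells of retinas 1la, 1Ra, 2la and 2Ra. Every Vsx1-only retina was below every Ddit4l-only retina, and Dpysl5 was lower in Vsx1-only cells with a difference of -2.09 ± 0.44 (log2 ± SE, edgeR adjusted p = 0.0460). In sums per mouse its adjusted p was 0.130.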

How the data were processed

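Smart-seq2 libraries of single sorted cells were used. For 32813 genes, the deposited tables hold expected counts from RSEM, without normalisation, and TPM, scaled by the authors within each cell. TopHat2 2.0.10, RSEM 1.2.28 and mm10 are named per the submitters' processing notes, and the annotation and strand setting are not given in the sources used here. Of 384 cells in the labels, 1 of retina 1la was not analysed here. The members, lists and tests were chosen with earlier results of these data known.

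Cells with at least 3000 genes at an expected count of 1 were grouped by exactly 1 of Sox6, Vsx1 and Ddit4l at 20 TPM or more. No doublet caller was run, and cells with more than 1 marker were left out. The deposited expected counts were rounded and summed per mouse and marker group (6 sums), and per retina and marker group (12 sums) as an alternative. edgeR 4.0.16 (R 4.3.3, limma 3.58.1) was used with TMM scaling, filterByExpr and quasi-likelihood tests with the mouse as block, since each mouse gives a sum to every group. The 3 marker genes were left out of counts of calls. Genes were called when the Benjamini-Hochberg adjusted p over all tested genes was under 0.05 and the log2 fold change reached 1 in size. SE values were derived from the quasi-likelihood F. The pipeline was tested on simulated counts. Alternatives were DESeq2 1.42.0, relative log expression scaling, no filter, no block, limma on log2(mean TPM + 1), other marker and gene thresholds, no cells with high rod transcripts, and each retina or mouse left out. Members were named in full when called in either kind of sum or at a mean of 20 TPM, and others were chosen after their values were seen. Gene positions come from GENCODE M21 on GRCm38. Reads of antisense or overlapping genes could not be told apart. Values of 1 bipolar marker are not reported here.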

Additional observations from a re-analysis of the deposited data

Results flagged for a closer look

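Over 23 members and 3 marker groups, 69 sets of 4 retinas were searched for a retina far from the other 3, by the gap to its nearest neighbour over the range. The measure picks about 1 in 20 sets by chance when values are normally distributed, and here it picked 13. Low CPM values with zeros need not follow that distribution, and the share over all genes was not worked out. The 13 can therefore not be read as an excess. In Sox6-only cells, Plxna2 was at 77.025 CPM in retina 1la and at 40.6 to 45.4 CPM in the others. Sema4a was at 24.1 CPM in 1Ra and at 1.10 to 4.28 CPM in the others, and Sema4f was at 24.4 CPM in 2la and at 0.0897 to 2.37 CPM in the others. In Vsx1-only cells, Plxnb2 was at 29.4 CPM in 2Ra and at 66.3 to 73.2 CPM in the others. Retina 1la was the high one for Sema4g (55.8 CPM, others 14.3 to 19.98), Sema6d (15.1 CPM, others 0.654 to 1.05), Sema3d (4.57 CPM, others 0 to 0.654) and Sema3f (1.54 CPM, others 0.0750 to 0.297). Sema4f was at 5.17 CPM in 2la of this group and at most at 0.225 CPM in the others. In Ddit4l-only cells, Sema4f was at 167 CPM in 1la and at 0 to 11.6 CPM in the others. Sema3d was at 0.521 CPM in 1Ra and Sema7a at 13.2 CPM in 2la, with 0 in the other 3 retinas. Plxnc1 was at 1.03 CPM in 2la, with at most 0.0796 CPM in the others.

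In the 51 kept cells outside the 3 marker groups, 2 members had means in both mice above their highest mean in any mouse and marker group. The share of all genes that meet this rule was not worked out, so the count says nothing particular about the family. The 51 cells are also a mixed set, 33 with no marker and 18 with more than 1. Sema3e, the secreted ligand of Plxnd1 that acts without a neuropilin, had a mean of 11.8 TPM in mouse 1 and 2.51 TPM in mouse 2, against at most 0.261 TPM in any mouse and marker group. Of these cells 4 were at 20 TPM or more, with a highest value of 135 TPM, and none of the 270 grouped cells was. The 4 cells were 3 of mouse 1 and 1 of mouse 2, and 3 of them held more than 1 marker. Plxnb3 had a mean of 0.065 TPM in mouse 1 and 0.224 TPM in mouse 2 outside the groups and 0 within them, with no cell over 6.05 TPM. Another 6 members (Plxnb1, Plxnd1, Sema4a, Sema4c, Sema6c and Sema6d) were above that level in 1 mouse. Among them were Sema6c with 14.5 TPM in mouse 1 and Sema4c with 7.75 TPM in mouse 2. Both means rested largely on 1 cell, at 279 TPM for Sema6c and 193 TPM for Sema4c.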

How the results depend on the processing

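The number of genes called depended on the test and on what was summed, and calls of members with it. Between Sox6-only and Vsx1-only cells, 0 genes were called in sums per mouse, 850 by DESeq2, 115 in sums per retina, 15 without the replicate block, 3 without a filter on low counts and 1 with a marker threshold of 50 TPM. Members called there were 4 by DESeq2 and 1 in sums per retina. Between Sox6-only and Ddit4l-only cells, 0 genes became 758 by DESeq2, 78 in sums per retina and 1 without the replicate block, and DESeq2 called 2 members. Between Vsx1-only and Ddit4l-only cells, 6 genes became 1611 by DESeq2, 331 in sums per retina, 60 without the replicate block, 3 with a marker threshold of 50 TPM and 0 without cells of high rod transcripts. Leaving out 1 retina gave from 0 (1la or 1Ra) to 9 (2la), with 4 without 2Ra. Members called there were 8 by DESeq2 and 1 in sums per retina. Without the replicate block, which pairs sums of the same mouse, no member was called in any comparison. The cause of these differences was not tested. Over 17 differences of named members, all 289 values under alternatives kept their direction, and 12 passed the threshold, 10 by DESeq2 and 2 in sums per retina. The alternatives reuse largely the same cells, and some of these members were chosen after their values were seen. A kept direction was therefore likely from the start and is no separate support for the differences. The adjusted p of Plxnb2 between Sox6-only and Vsx1-only cells ranged from 1.09e-09 to 0.569 over the alternatives, with log2 differences from 1.42 to 1.88. At a threshold of 5 TPM in place of 20, Sema4d was present in 90.7%, 91.7% and 93.2% and Plxna2 in 58.3%, 86.7% and 76.3% of Sox6-only, Vsx1-only and Ddit4l-only cells. With 2 mice, the tests in sums per mouse have few degrees of freedom, so a missed threshold does not show that levels were alike.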
